A study of Homo sapiens with 12 samples.

Results

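The 38 transcripts described here belong to the charging of tRNA and to the amino acid stress response. They comprise 19 genes for aminoacyl-tRNA synthetases that charge tRNA in the cytosol and 3 genes for scaffold proteins that hold synthetases in a complex. The others are the transcription factor gene ATF4 and 15 genes listed as its targets. A member was measured where the array held a probe set annotated to that gene alone, and the probe set with the highest mean over the 12 arrays stood for the gene. By this rule 34 of the 38 genes were measured, and all 34 were among the 14283 genes tested, out of 19775 genes with a probe set of their own. The 34 were 17 of the 19 synthetases, the scaffold gene AIMP1, and ATF4 with all 15 of its listed targets. MARS1 and QARS1 share their probe sets with another gene symbol, and they were not analysed here. The scaffold genes AIMP2 and EEF1E1 were not analysed here either.

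An aminoacyl-tRNA synthetase joins an amino acid to its tRNA, so that the ribosome receives a charged tRNA for each codon. When amino acids are scarce or the endoplasmic reticulum is stressed, kinases phosphorylate the initiation factor eIF2, most protein synthesis slows, and translation of the ATF4 mRNA rises. ATF4 then binds composite elements in the genes for synthetases, amino acid enzymes and transporters, often with a C/EBP partner. FoxO transcription factors are held in the cytoplasm when AKT phosphorylates them after growth factor signalling, and they enter the nucleus when that signal falls.

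The study used RCC4 and UMRC2, established human kidney cancer lines that the submitters describe as low in their own FoxO1 and FoxO3. Each line stably carried 1 of 3 constructs: FoxO1 or FoxO3 with its AKT phosphorylation sites changed to alanine and fused to the 4-hydroxytamoxifen-responsive estrogen receptor moiety ERT2, or ERT2 alone (EV). Cells grown with serum and under puromycin received 100 nM 4-hydroxytamoxifen (4OHT), which moves the fusion into the nucleus, or its ethanol vehicle for 12 h. Total RNA of each of the 12 combinations was hybridised to 1 Human Genome U133 Plus 2.0 array. Each combination thus had 1 array, so no p-value measures the spread between cultures. In comparisons of constructs the lines stood as replicates, and in comparisons of the lines the constructs did. The sources used here do not say whether a stable line was a clone or a pool. A response is the log2 level with 4OHT minus the log2 level with vehicle, and both fusions were compared with the same EV responses.

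Probe sets for ESR1, which read the ERT2 moiety, had a median log2 level with vehicle of 9.17 and 12.42 in RCC4 with FoxO1 and FoxO3 and of 12.22 and 13.15 in UMRC2. The EV cells stood at 5.24 in RCC4 and 4.59 in UMRC2. Only 5 of the 9 ESR1 probe sets were used. They were those at least 2 log2 units above EV with each fusion in both lines. The low EV level was thus fixed by that choice, and it says nothing about the label of EV cells as expressing ERT2. The median ratio of FoxO3 to FoxO1 fusion signal over the 5 probe sets used was 9.03 in RCC4 and 2.07 in UMRC2, so isoform and amount cannot be told apart. In EV cells with vehicle, the probe set for FOXO1 stood at 6.42 in RCC4 and 6.73 in UMRC2 and that for FOXO3 at 10.32 and 11.59, so the FOXO3 transcript was well above the array median of 6.62. CCND1, the cyclin D1 gene that FoxO represses, fell by 2.28 in the mean FoxO response against EV. Of the genes listed as markers of renal cancer lines, PAX8, the keratin genes KRT8 and KRT18, and the mesenchymal genes VIM and CDH2 lay between 10.50 and 14.46 in all 12 arrays, and PAX2 was at or above the array median in 11. PTPRC, ALB, NPHS1 and COL3A1 were below the array median in all arrays, while PECAM1 lay at 8.19 to 8.79. Hybridisation spike-ins had a mean intensity of 4212 to 4699 in 5 RCC4 arrays, of 2515 in the RCC4 FoxO3 array with 4OHT, and of 2239 to 2463 in the UMRC2 arrays. The RCC4 FoxO3 pair therefore spans both signal levels, and the UMRC2 pairs do not. In RNA from whole cultures, fewer cells of a kind and less RNA per cell cannot be told apart.

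The promoters of several members carry the letters of an ATF4 element, and these are shown because ATF4 is known to act through such elements. The windows are RefSeq promoters on GRCh38.p14, from 250 bases before to 50 bases after each start. They were searched on both strands for TGATGNAA, the core of the composite element that C/EBP and ATF4 bind. It was found in 6 of the 14 measured synthetases with a window, a share of 42.9%, against 4.46% of 27305 genes. Capitals mark the match in the 6 synthetase stretches, written 5′ to 3′ on the strand of the gene.
AARS1 (chr16:70289656-70289723, minus strand): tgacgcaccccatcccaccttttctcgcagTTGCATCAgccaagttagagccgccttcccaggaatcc
CARS1 (chr11:3057410-3057433, minus strand): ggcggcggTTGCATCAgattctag
GARS1 (chr7:30594815-30594877, plus strand): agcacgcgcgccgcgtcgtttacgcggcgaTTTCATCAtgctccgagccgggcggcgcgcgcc
IARS1 (chr9:92293698-92293740, minus strand): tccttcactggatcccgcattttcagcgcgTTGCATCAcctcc
NARS1 (chr18:57621807-57621830, minus strand): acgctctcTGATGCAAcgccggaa
TARS1 (chr5:33440959-33440982, plus strand): cctttcgaTTGCATCAgctggtcc

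Among ATF4 and its targets, 3 of 13 genes with a window held the same letters, a share of 23.1%. They encode asparagine synthetase, the transcription factor C/EBP gamma and the glutathione-degrading enzyme CHAC1, and capitals again mark the match.
ASNS (chr7:97872439-97872506, minus strand): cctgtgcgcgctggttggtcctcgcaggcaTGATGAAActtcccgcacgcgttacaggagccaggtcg
CEBPG (chr19:33374041-33374108, plus strand): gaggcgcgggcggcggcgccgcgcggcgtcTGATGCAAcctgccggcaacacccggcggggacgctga
CHAC1 (chr15:40953232-40953299, plus strand): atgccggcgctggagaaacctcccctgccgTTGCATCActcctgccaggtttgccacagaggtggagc

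The FoxO motif GTAAACA, searched on both strands, was in the windows of 4.19% of all genes and, of the members measured, in that of CARS1 alone. The E-box CACGTG, which reads the same on both strands and which MYC and its relatives bind, was in 8.77% of all genes and in the windows of IARS1, ATF4 and ALDH18A1. LARS1, VARS1, YARS1, NUPR1, EIF4EBP1 and PYCR1 had no window in the table. A match is only a run of letters, and its absence from these windows says nothing about binding elsewhere.

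Most synthetase transcripts fell when FoxO3 was activated, and the largest falls were in the genes for the subunits of phenylalanyl-tRNA synthetase. In the FoxO3 response against EV, 13 of the 17 synthetases fell and 0 rose, at a Benjamini-Hochberg adjusted p under 0.05 in limma. Of all genes tested, 10.0% fell and 6.60% rose in this comparison. The median synthetase difference was -0.91, against -0.07 over all genes tested. The synthetases that fell were those for alanine, glutamate and proline (EPRS1), phenylalanine (FARSA and FARSB), histidine, isoleucine, lysine, leucine, asparagine, serine, threonine, valine and tyrosine. The 4 that did not pass were CARS1 at 0.12, GARS1 at 0.08, WARS1 at -0.40 and RARS1 at -1.05, whose adjusted p was 0.0614.

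**Figure D1:**
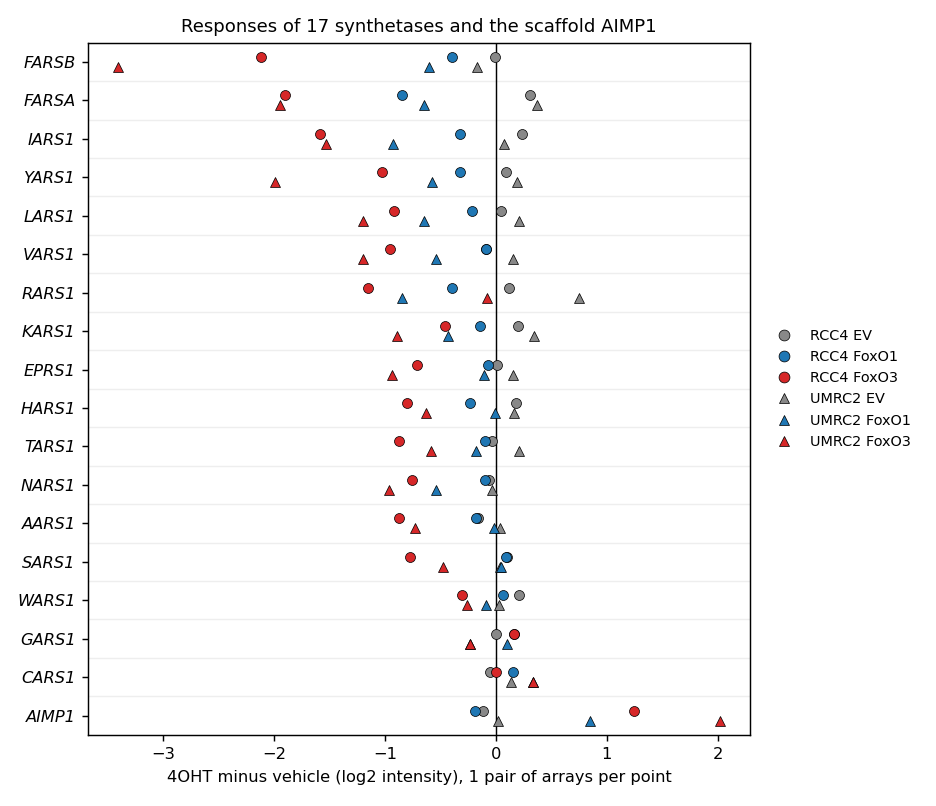
Response to 4OHT (log2 level with 4OHT minus log2 level with vehicle) of each measured synthetase and of AIMP1 in the 6 pairs of line (circle RCC4, triangle UMRC2) and construct (colour), 1 point per pair. The FoxO3 points lie lowest for most synthetases, FARSB reaches -3.40 in UMRC2, and AIMP1 lies on the other side of 0 at 1.25 and 2.02.

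FARSA encodes the catalytic alpha subunit of phenylalanyl-tRNA synthetase. In RCC4, its log2 level with vehicle was 10.16 (EV), 10.33 (FoxO1) and 10.40 (FoxO3), and with 4OHT it was 10.47, 9.48 and 8.50 in the same order. In UMRC2, the FARSA levels were 9.80, 10.37 and 9.99 with vehicle and 10.17, 9.72 and 8.05 with 4OHT. The FoxO3 arrays with 4OHT were the lowest of the 12, and in each line the FoxO1 array with 4OHT was next below all the rest of that line. The FARSA response to FoxO3 was below that to EV by 2.26 ± 0.21 on the log2 scale (difference -2.26, SE 0.21), a 4.79-fold fall (limma adjusted p = 0.00146).

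FARSB encodes the beta subunit of the same enzyme. In RCC4, FARSB stood at 11.84, 11.87 and 11.95 in EV, FoxO1 and FoxO3 cells with vehicle and at 11.84, 11.48 and 9.83 with 4OHT. In UMRC2, FARSB stood at 11.16, 10.95 and 10.94 with vehicle and at 10.99, 10.35 and 7.53 with 4OHT. Both FoxO3 arrays with 4OHT lay below all other arrays. The difference from EV was -2.67 ± 0.29 (SE), a 6.37-fold fall (limma adjusted p = 0.00205). Both subunit genes have a second bright probe set, which gave -1.07 for FARSA and -1.08 for FARSB, so the direction was shared and the size was smaller.

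IARS1 encodes isoleucyl-tRNA synthetase, a member of the multi-synthetase complex. In RCC4, IARS1 read 13.23, 13.32 and 13.32 with vehicle in EV, FoxO1 and FoxO3 cells and 13.47, 12.99 and 11.74 with 4OHT. In UMRC2, IARS1 read 12.75, 12.69 and 12.78 with vehicle and 12.82, 11.76 and 11.25 with 4OHT. The FoxO3 arrays with 4OHT and the UMRC2 FoxO1 array with 4OHT lay below the other 9. IARS1 fell by 1.71 ± 0.17 (SE) under FoxO3 against EV (limma adjusted p = 0.00166).

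YARS1 encodes tyrosyl-tRNA synthetase, which works outside the complex. RCC4 cells held YARS1 at 11.12, 11.26 and 11.05 with vehicle and at 11.21, 10.94 and 10.02 with 4OHT, in the order EV, FoxO1 and FoxO3. UMRC2 cells held YARS1 at 12.80, 12.67 and 12.74 with vehicle and at 12.99, 12.10 and 10.75 with 4OHT. UMRC2 was higher than RCC4 before activation, and the FoxO3 arrays with 4OHT were the lowest in each line. The difference from EV was -1.65 ± 0.25 (SE, limma adjusted p = 0.0052). A second YARS1 probe set, with a mean level of 7.24, gave 0.46 in the same comparison.

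The remaining 9 synthetases that fell under FoxO3 lay between the -1.18 of LARS1 and the -0.69 of SARS1. LARS1 and VARS1, at -1.11, charge the branched-chain amino acids leucine and valine, as IARS1 does isoleucine. KARS1 fell by 0.94, EPRS1 by 0.91, HARS1 by 0.88, TARS1 by 0.82, NARS1 by 0.81 and AARS1 by 0.74. A dimmer second TARS1 probe set, with a mean level of 7.06, gave 0.21. For CARS1, 1 of 3 further bright probe sets gave -1.46 and was the dimmest of them, at a mean level of 6.28.

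Falls were found in both structural classes of synthetase and on both sides of the complex. In the FoxO3 response against EV, 10.0% of all genes tested fell. Among class I enzymes, 4 of 7 fell with a median of -1.11, and among class II enzymes 8 of 9 fell with a median of -0.82. EPRS1, which belongs to both classes and also fell, is in neither count. Of the 5 measured members of the complex 4 fell, with a median of -1.05, and of the 12 outside it 9 fell, with a median of -0.81. Of the 6 synthetases whose promoters are printed above 4 fell, with a median of -0.77, and of the 8 with a window but no match 6 fell, with a median of -0.93. The differences between these subgroups were not tested.

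The scaffold gene AIMP1 rose under FoxO3, whereas the 5 measured synthetases of the complex lay below EV, 4 of them called. AIMP1 encodes the p43 component of the complex, which is also the precursor of a secreted cytokine. In RCC4, AIMP1 was at 12.20, 12.26 and 12.21 with vehicle and at 12.08, 12.07 and 13.46 with 4OHT in EV, FoxO1 and FoxO3 cells. In UMRC2, AIMP1 was at 11.81, 11.83 and 11.71 with vehicle and at 11.83, 12.69 and 13.74 with 4OHT. Both FoxO3 arrays with 4OHT were above every other array. AIMP1 rose by 1.68 ± 0.21 (SE) under FoxO3 against EV, 3.21-fold (limma adjusted p = 0.00306), and its other probe sets gave 1.69 and 1.66.

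ATF4 and its listed targets went both ways under FoxO3. Against EV, 6 of the 16 genes fell and 2 rose, with a median of -0.57. The genes that fell were TRIB3, CHAC1 and EIF4EBP1, grouped here as feedback genes, and the amino acid enzyme genes ALDH18A1, PYCR1 and ASNS. NUPR1 and PPP1R15A rose. The whole set of 34 members thus held 22 called genes, 19 lower and 3 higher, where 16.6% of all genes tested were called.

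**Figure D2:**
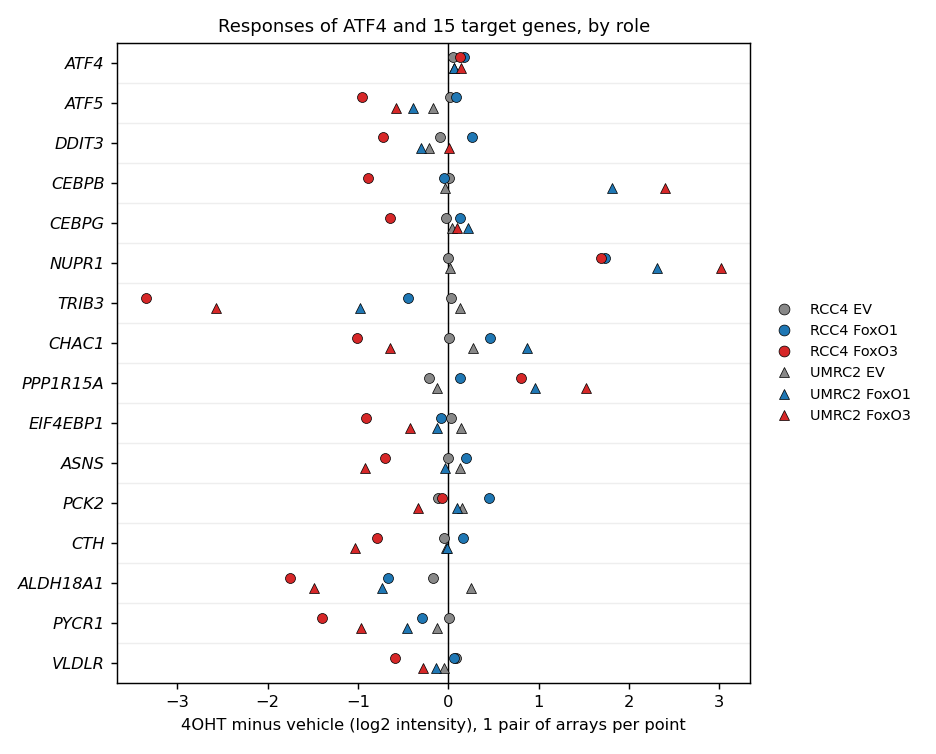
Log2 response to 4OHT (log2 level with 4OHT minus log2 level with vehicle) of ATF4 and its 15 listed targets in the 6 pairs of line and construct, 1 point per pair. NUPR1 lies at 1.69 or above in all 4 FoxO pairs, TRIB3 lies at -3.35 and -2.57 with FoxO3, and ATF4 stays between 0.05 and 0.17 in every pair.

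The ATF4 transcript itself was nearly level. In RCC4, ATF4 was at 13.06, 13.12 and 13.09 with vehicle and 13.11, 13.29 and 13.21 with 4OHT in EV, FoxO1 and FoxO3 cells. In UMRC2, ATF4 was at 13.29, 13.13 and 13.18 with vehicle and 13.36, 13.19 and 13.33 with 4OHT. The groups overlapped, and the FoxO3 difference from EV was 0.08 ± 0.11 (SE, limma adjusted p = 0.698). ATF4 is controlled largely by translation, which these arrays do not read.

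NUPR1, a small stress-induced chromatin protein, was higher after 4OHT with either fusion. In RCC4, NUPR1 stood at 12.16, 12.33 and 12.26 with vehicle and at 12.15, 14.07 and 13.95 with 4OHT in EV, FoxO1 and FoxO3 cells. In UMRC2, NUPR1 stood at 10.90, 10.59 and 10.91 with vehicle and at 10.92, 12.91 and 13.94 with 4OHT. All 4 FoxO arrays with 4OHT were above the other 8 arrays. NUPR1 rose by 2.36 ± 0.27 (SE) under FoxO3 against EV, 5.12-fold (limma adjusted p = 0.00246). Under FoxO1 its difference was 2.02 ± 0.27 with an adjusted p of 0.0538, just outside the threshold.

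CEBPB, which encodes a C/EBP partner of ATF4, rose with both fusions in UMRC2, while in RCC4 it fell with FoxO3 and was nearly level with FoxO1. In RCC4, CEBPB was at 12.62, 12.45 and 12.43 with vehicle and at 12.64, 12.41 and 11.54 with 4OHT in EV, FoxO1 and FoxO3 cells. In UMRC2, CEBPB was at 10.93, 11.08 and 10.95 with vehicle and at 10.89, 12.89 and 13.35 with 4OHT. The UMRC2 FoxO arrays with 4OHT were the highest of that line, whereas the RCC4 FoxO3 array with 4OHT was the lowest of its line. The test across lines gave 0.77 ± 0.63 (SE) for FoxO3 against EV, which did not pass (limma adjusted p = 0.474).

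The other transcription factor genes had no call under FoxO3. ATF5, a relative of ATF4, was at 9.35, 9.08 and 9.76 with vehicle in RCC4 and at 9.37, 9.17 and 8.80 with 4OHT, in the order EV, FoxO1 and FoxO3. Its UMRC2 levels were 9.75, 9.65 and 9.56 with vehicle and 9.58, 9.26 and 8.98 with 4OHT. The ATF5 array with FoxO3 and 4OHT was the lowest in each line, but the difference from EV of -0.69 ± 0.27 (SE) did not pass (limma adjusted p = 0.139). CEBPG, another C/EBP partner, was at 10.41, 10.26 and 10.33 with vehicle in RCC4 and at 10.39, 10.39 and 9.68 with 4OHT. In UMRC2 its levels were 9.81, 9.78 and 9.94 with vehicle and 9.85, 9.99 and 10.03 with 4OHT. CEBPG was lowest in the RCC4 FoxO3 array with 4OHT, and its difference was -0.29 ± 0.24 (limma adjusted p = 0.491). DDIT3, which encodes the stress factor CHOP, differed by -0.20 ± 0.32 (limma adjusted p = 0.742).

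The genes grouped here as feedback genes held the largest fall of the whole set. TRIB3 encodes a pseudokinase that ATF4 induces and that then restrains ATF4 and AKT. In RCC4, TRIB3 was at 12.47, 12.15 and 12.46 with vehicle and at 12.50, 11.70 and 9.12 with 4OHT in EV, FoxO1 and FoxO3 cells. In UMRC2, TRIB3 was at 12.49, 12.25 and 12.47 with vehicle and at 12.62, 11.28 and 9.89 with 4OHT. Both FoxO3 arrays with 4OHT were far below the rest, and each FoxO1 array with 4OHT was the next lowest of its line. TRIB3 fell by 3.04 ± 0.28 (SE), 8.24-fold (limma adjusted p = 0.00146), and its second probe set gave -4.18.

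CHAC1, which degrades glutathione, had responses of opposite sign with the isoforms. In RCC4, CHAC1 was at 9.88, 9.82 and 10.35 with vehicle and at 9.88, 10.28 and 9.34 with 4OHT in EV, FoxO1 and FoxO3 cells. In UMRC2, CHAC1 was at 7.62, 7.55 and 7.47 with vehicle and at 7.90, 8.43 and 6.82 with 4OHT. The FoxO3 array with 4OHT was the lowest in each line, and in UMRC2 the FoxO1 array with 4OHT was the highest. Set against EV, the FoxO1 response was 0.46 higher in RCC4 and 0.60 higher in UMRC2, and the FoxO3 response was different by -1.01 and -0.93. The FoxO3 fall passed at -0.97 ± 0.25 (SE, limma adjusted p = 0.0384), and the FoxO1 value of 0.53 ± 0.25 did not (limma adjusted p = 0.543).

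PPP1R15A encodes GADD34, which brings a phosphatase to eIF2 and ends the stress signal. In RCC4, PPP1R15A was at 10.25, 10.21 and 10.06 with vehicle and at 10.04, 10.34 and 10.86 with 4OHT in EV, FoxO1 and FoxO3 cells. In UMRC2, PPP1R15A was at 10.34, 10.24 and 10.39 with vehicle and at 10.21, 11.20 and 11.91 with 4OHT. The FoxO3 array with 4OHT was the highest in each line, while the RCC4 FoxO1 array with 4OHT was only just above the vehicle arrays of its line. PPP1R15A rose by 1.33 ± 0.23 (SE, limma adjusted p = 0.00883), but its other probe set gave only 0.09. EIF4EBP1, an inhibitor of cap-dependent translation, was at 12.22, 12.21 and 12.33 with vehicle in RCC4 and at 12.25, 12.13 and 11.42 with 4OHT. Its UMRC2 levels were 12.59, 12.80 and 12.77 with vehicle and 12.73, 12.68 and 12.34 with 4OHT. The array with FoxO3 and 4OHT was again the lowest of each line, and EIF4EBP1 fell by 0.75 ± 0.16 (SE, limma adjusted p = 0.0185).

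**Figure D3:**
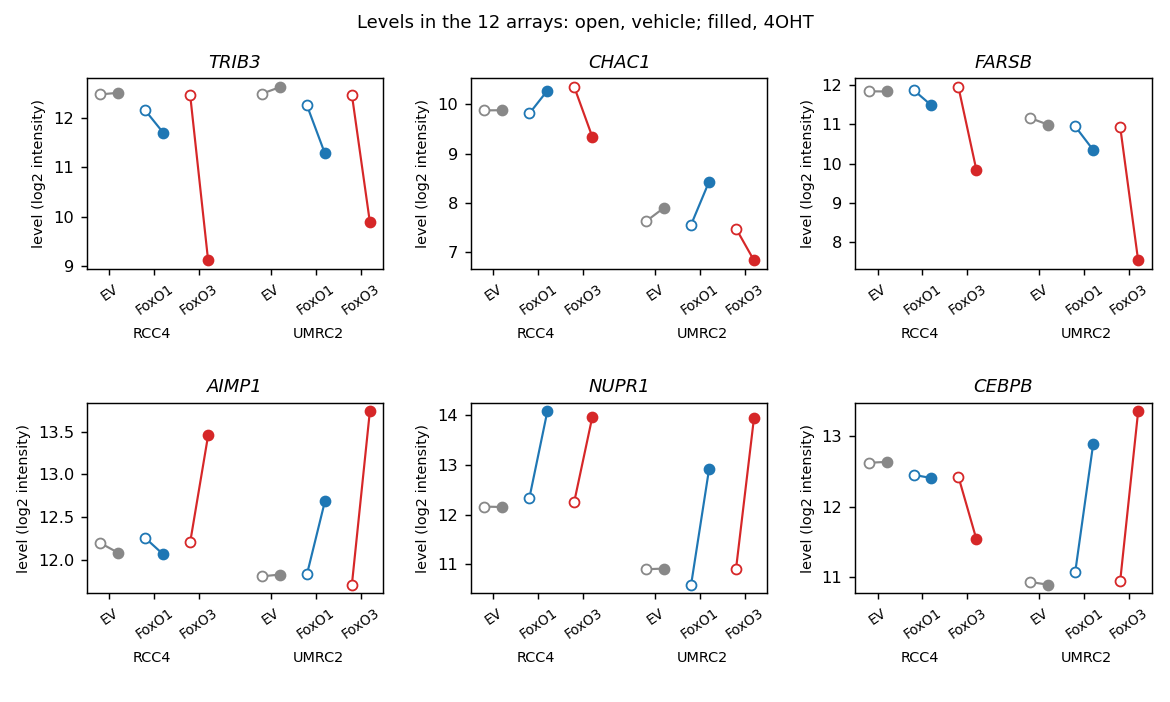
Log2 level of TRIB3, CHAC1, FARSB, AIMP1, NUPR1 and CEBPB in each of the 12 arrays, grouped by line and construct, with open points for vehicle, filled points for 4OHT and a line joining each pair. The vertical axis differs between panels; TRIB3 and FARSB drop with FoxO3 in both lines, NUPR1 is higher with 4OHT in all 4 FoxO pairs, and CEBPB is higher in the UMRC2 FoxO pairs alone.

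Among the amino acid enzymes, ALDH18A1 had the largest fall under FoxO3. ALDH18A1 encodes the enzyme that begins proline synthesis from glutamate. In RCC4, ALDH18A1 was at 11.32, 11.25 and 11.29 with vehicle and at 11.15, 10.59 and 9.53 with 4OHT in EV, FoxO1 and FoxO3 cells. In UMRC2, ALDH18A1 was at 11.22, 11.30 and 11.25 with vehicle and at 11.47, 10.56 and 9.77 with 4OHT. The 4 FoxO arrays with 4OHT were below the other 8. ALDH18A1 fell by 1.66 ± 0.19 (SE) under FoxO3 against EV (limma adjusted p = 0.0024), and its second probe set gave -1.58.

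PYCR1 completes proline synthesis in the mitochondrion. In RCC4, PYCR1 was at 9.73, 9.97 and 10.01 with vehicle and at 9.74, 9.68 and 8.61 with 4OHT in EV, FoxO1 and FoxO3 cells. In UMRC2, PYCR1 was at 9.96, 9.97 and 9.83 with vehicle and at 9.84, 9.52 and 8.86 with 4OHT. The FoxO3 arrays with 4OHT were the lowest of the 12, and PYCR1 fell by 1.13 ± 0.24 (SE, limma adjusted p = 0.0202).

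ASNS makes asparagine from aspartate and is a standard readout of ATF4. In RCC4, ASNS was at 12.30, 12.24 and 12.16 with vehicle and at 12.30, 12.44 and 11.46 with 4OHT in EV, FoxO1 and FoxO3 cells. In UMRC2, ASNS was at 10.43, 10.06 and 10.23 with vehicle and at 10.56, 10.02 and 9.30 with 4OHT. The lines did not overlap, and within each the FoxO3 array with 4OHT was the lowest. ASNS fell by 0.88 ± 0.18 (SE, limma adjusted p = 0.0152).

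CTH makes cysteine from cystathionine. In RCC4, CTH was at 9.22, 8.79 and 8.84 with vehicle and at 9.18, 8.95 and 8.05 with 4OHT in EV, FoxO1 and FoxO3 cells. In UMRC2, CTH was at 7.18, 6.77 and 6.94 with vehicle and at 7.15, 6.75 and 5.90 with 4OHT. The array with FoxO3 and 4OHT was the lowest in each line, and in UMRC2 it was under the array median. The CTH difference of -0.88 ± 0.33 (SE) did not pass (limma adjusted p = 0.121). PCK2, a mitochondrial enzyme of phosphoenolpyruvate synthesis, differed by -0.23 and the lipoprotein receptor gene VLDLR by -0.45, and neither passed.

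Under FoxO1 the synthetases lay closer to EV, and none of the 34 members passed its test. In this comparison limma called 12 of all genes tested, 0.0840%, so 0 of 34 is read against a nearly empty background. At an unadjusted p under 0.05 there were 10 members and 1430 genes. The synthetase median was -0.29, with 15 of 17 values below 0, and the median of ATF4 and its targets was 0.08. FARSA at -1.09 and RARS1 at -1.06 had the lowest values, with adjusted p of 0.137 and 0.339. RARS1 was the exception among these enzymes, since in UMRC2 its FoxO1 response of -0.84 was below its FoxO3 response of -0.08. Its response in UMRC2 EV cells was 0.75, so its differences from EV in UMRC2 also hold that rise.

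Averaged over both fusions, 14 members were called against EV, 11 lower and 3 higher, where 7.81% of all genes tested were called. The synthetases contributed 9 falls of 17 and 0 rises, with a median of -0.59 against -0.05 for all genes tested. FARSA at -1.67, FARSB at -1.54, IARS1 at -1.25 and YARS1 at -1.12 had the lowest synthetase values. AIMP1 rose by 1.03. ATF4 and its targets contributed TRIB3 at -1.92 and ALDH18A1 at -1.20 below 0, and NUPR1 at 2.19 and PPP1R15A at 1.03 above 0. The share lower among all genes tested was 4.73%, and the share higher was 3.09%.

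The isoforms were also compared directly. The EV arrays did not enter the difference itself, but they entered the estimate of spread behind its SE and p. FoxO3 and FoxO1 responses differed in 11 of 34 members, 10 lower and 1 higher under FoxO3, where 5.81% of all genes tested were called (3.65% lower and 2.16% higher). FARSB had the largest synthetase difference at -2.26 ± 0.29 (SE, limma adjusted p = 0.0117). The other synthetases past the threshold were FARSA at -1.17, IARS1 at -0.93, EPRS1 at -0.74, AARS1 at -0.70 and SARS1 at -0.69. The synthetase median was -0.63, and YARS1 at -1.06 missed the threshold (adjusted p = 0.0512). TRIB3 differed by -2.25 ± 0.28 (adjusted p = 0.0108) and CHAC1 by -1.50 ± 0.25 (adjusted p = 0.0226), both by limma. ALDH18A1 at -0.92 and ASNS at -0.89 were the remaining lower targets, and AIMP1 was higher by 1.31 ± 0.21. NUPR1, at 0.33 ± 0.27, was not shown to differ (limma adjusted p = 0.55), which does not show that the isoforms act alike.

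**Figure D4:**
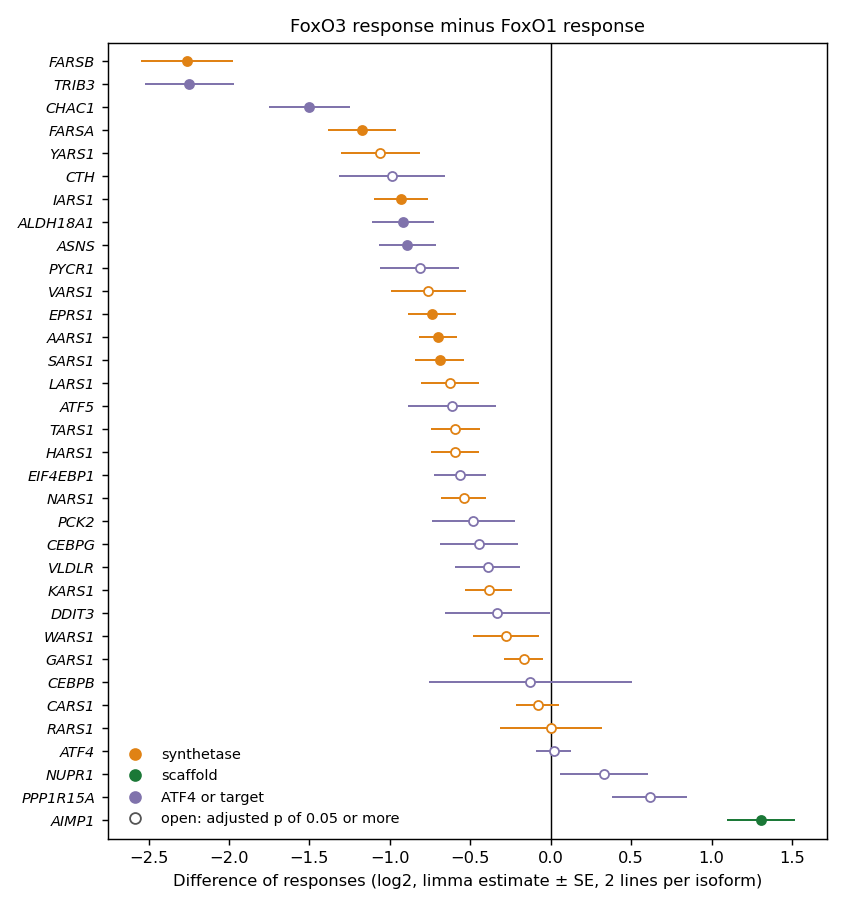
FoxO3 response minus FoxO1 response of each of the 34 members measured, in log2 units, as the limma estimate with a bar of 1 SE on each side (2 lines per isoform). Filled points passed an adjusted p of 0.05 and open points did not; FARSB, TRIB3 and CHAC1 lie farthest below 0, and AIMP1 is the 1 filled point above it, at 1.31.

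The same side of EV was held in both lines by most synthetases. Under FoxO3, 15 of 17 synthetases were below EV in both RCC4 and UMRC2, 88.2%, against 38% of all genes tested. Under FoxO1 this held for 14 of 17, 82.4%, against 31.3% of all genes. Of ATF4 and its targets, 9 of 16 were below EV in both lines under FoxO3 and 5 of 16 under FoxO1. The median synthetase response to FoxO3 was -0.87 in RCC4 and -0.89 in UMRC2, and that to FoxO1 was -0.14 and -0.43. In EV cells the medians were 0.04 and 0.15. Of these FoxO3 pairs, the UMRC2 arrays share 1 spike-in level and the RCC4 arrays do not. With the RCC4 FoxO3 pair left out, 19 members were called for FoxO3 against EV, 12 of them synthetases that fell.

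No member's FoxO response was called different between the lines, and 0% of all genes tested were. The FoxO1 and FoxO3 pairs stood as replicates of a line here, so differences between isoforms widened the error. For TRIB3 the SE was 1.75, against 0.28 for FoxO3 against EV. The absence of calls therefore does not show that the lines responded alike. At an unadjusted p under 0.05, limma gave 1 member and 338 genes. That member was CEBPB, with a difference of -2.63 ± 0.64 (SE) between RCC4 and UMRC2, an unadjusted p of 0.00734 and an adjusted p of 1.

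No member was called for 4OHT by itself. In EV cells limma called 0 members and 0% of all genes tested, with 1 member (KARS1 at 0.27) and 339 genes at an unadjusted p under 0.05. The synthetase median was 0.09, and that of ATF4 and its targets was 0.02. Before 4OHT, limma called 0 members and 0% of genes between cells with a fusion and EV cells. ESR1 itself, 6.96 higher with a fusion, was not called there, so the absence of calls does not show that members were alike. FARSA, HARS1, KARS1, ASNS and CTH were the 5 members with an unadjusted p under 0.05, among 1214 genes, and the synthetase median was -0.03.

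Before activation the lines themselves differed in most members. Between RCC4 and UMRC2 with vehicle, 26 of 34 members were called, 22 higher and 4 lower in RCC4, where 52.4% of all genes tested were called (27.9% higher and 24.4% lower). Of ATF4 and its targets 9 of 16 were higher in RCC4, with CHAC1 at 2.47, ASNS at 2.00, CTH at 1.99, CEBPB at 1.52 and NUPR1 at 1.45. Among the synthetases 12 of 17 were higher in RCC4, led by WARS1 at 1.73 and RARS1 at 1.14, and YARS1 at -1.59, NARS1 at -0.93 and VARS1 at -0.56 were lower. ATF4 differed by -0.11 and did not pass (limma adjusted p = 0.0842). On the values as deposited the all-gene median of this comparison moved from 0.06 to 0.77 and the split became 31 higher and 1 lower, so each direction here is relative to the array scaling. EIF4EBP1 (-0.46) and VARS1 changed sign there, to 0.42 and 0.18, and AIMP1 turned from 0.44 to -0.26 when its probe sets were averaged.

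**Figure D5:**
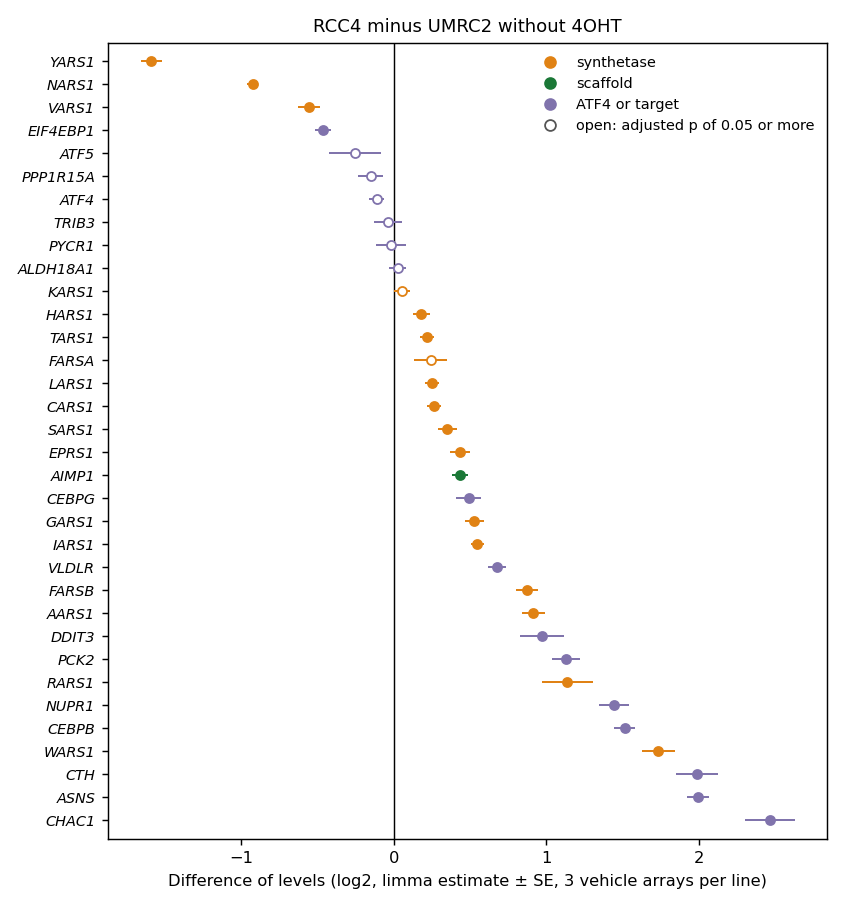
Level in RCC4 minus level in UMRC2 with vehicle for each of the 34 members measured, in log2 units, as the limma estimate with a bar of 1 SE on each side (3 vehicle arrays per line). Filled points passed an adjusted p of 0.05 and open points did not; YARS1 lies lowest at -1.59 and CHAC1 highest at 2.47.

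Genes around this set were followed in lists of their own, counted here for FoxO3 against EV, where 10.0% of all genes tested fell, 6.60% rose and the median was -0.07. Of 15 mitochondrial synthetase genes tested, 3 fell and 0 rose, with a median of -0.33: EARS2 (-1.61), CARS2 (-1.57) and MARS2 (-1.11). A list of 19 genes for tRNA handling outside charging included the nuclear export receptor gene XPO1. Of these 19 genes, 6 fell and 0 rose, with a median of -0.78. They included RPP40 at -1.97 and POP1 at -1.84, subunits of the nuclease that trims tRNA precursors, TSEN54 at -1.69 of the splicing endonuclease, and POLR3K at -1.58 of RNA polymerase III. Another list held 16 genes for eIF2, its exchange factor, its kinases and phosphatases, and the kinase regulators GCN1 and IMPACT. Of these, 2 fell, EIF2S3 (-0.71) and EIF2S1 (-0.63), and 1 rose, the heme-sensing kinase gene EIF2AK1 (0.58). The median of that list was -0.34, and its shares of falls and rises are near those of all genes.

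A further list held 27 genes tested, drawn up as ATF4 targets, though not all of them are established ones. Of these, 11 fell and 3 rose, with a median of -0.32, against the same 10.0% and 6.60% of all genes tested. DDIT4, an inhibitor of mTOR, fell by 2.45, and MTHFD2, of mitochondrial one-carbon metabolism, fell by 1.98. The amino acid transporter gene SLC7A1 fell by 1.73. The 3 that rose were CEBPD, a C/EBP gene, by 2.21, KLHL24 by 1.75 and CLIC4 by 0.72. These 3 are not established ATF4 targets. CEBPD was the 1 gene of these lists that passed under FoxO1, at 1.32 ± 0.15 (SE, limma adjusted p = 0.0416).

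The calls rest on a moderated test with 2 residual degrees of freedom. Without the filter on dim genes, limma called 0 members in each FoxO comparison. It also called 0 with a prior variance that does not follow the level. Both fits called 0 of all genes tested too. At an unadjusted p under 0.05 for FoxO3 against EV, they gave 24 and 23 members, and 4284 and 3700 genes. Leaving out the UMRC2 EV pair left 12 calls for FoxO3 against EV and 4 for the mean FoxO response, and dropping the FoxO1 pair of UMRC2 left 9 for the latter. For FoxO3 against FoxO1, leaving out FoxO1 pairs left 1 call where the RCC4 pair was dropped and 4 where the UMRC2 pair was. In each of these fits the calls over all genes tested were fewer too. On the values as deposited the calls were 7 members and 583 genes for FoxO3 against EV. They were 4 members and 184 genes for the mean FoxO response, and 2 members and 46 genes for FoxO3 against FoxO1. The all-gene median of FoxO3 against EV was then -0.42 and the synthetase median -1.26. In each of the 15 alternatives run for FoxO3 against EV, 15 to 17 of the 17 synthetases were below 0.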

How the data were processed

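The authors deposited 1 linear intensity per probe set and array, made with MAS5 per the submitters' processing notes, with the version and scaling target not given in the sources used here. Array medians of these intensities ran from 71.1 to 138.7. Of 54675 probe sets, 62 were controls, 41091 had 1 gene symbol in the platform annotation, 1801 had several and 11721 had none. Here log2 intensities were quantile-normalised and floored at the 20th percentile (log2 4.17), and 1 probe set was kept per gene. A gene was tested if it reached the array median (6.62) in 2 arrays or more. Responses were fitted with limma 3.58.1 (R 4.3.3) on construct and line, with a prior that follows the level (2 residual and 5.465 prior degrees of freedom), and adjusted by Benjamini-Hochberg over all 14283 genes at 0.05. Vehicle arrays were fitted on fusion and line. The procedure was run on simulated responses whose noise was drawn from the same fitted model, so that run could not check the prior. The number of arrays limits the precision.

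Members, gene lists and tests were chosen with earlier results of these data known. Array values are given for up to 4 members per role with the largest mean FoxO or FoxO3 against FoxO1 difference, called members first, and for ATF4, which was added by choice. Named genes of the further lists are those with the largest mean FoxO differences among called genes. Genes called under FoxO3 were added in the 2 lists with fewer calls, and CLIC4 was added because it rose under FoxO3. Alternatives covered scaling, floor, filter, probe sets, prior, model terms and left-out pairs. Promoter windows came from RefSeq (GRCh38.p14).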

Additional observations from a re-analysis of the deposited data

Results flagged for a closer look

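CEBPB stood out because its FoxO responses against EV were above 0 in UMRC2 and below 0 in RCC4. In RCC4 the value was -0.90 with FoxO3 but only -0.06 with FoxO1, so the fall there rests on 1 pair. The RCC4 minus UMRC2 difference was -2.63, and its adjusted p in limma was 1. PCK2 was above EV with both fusions in RCC4 and below EV with both in UMRC2. Its values with FoxO1 and FoxO3 were 0.56 and 0.03 in RCC4 and -0.06 and -0.49 in UMRC2, so 1 value in each line was near 0. The RCC4 minus UMRC2 difference of PCK2 was 0.57, with an adjusted p of 1 in limma. CHAC1 stood out between the isoforms, being above EV with FoxO1 and below EV with FoxO3 in both lines, with a FoxO3 minus FoxO1 difference of -1.50 (limma adjusted p = 0.0226).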

How the results depend on the processing

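For the mean FoxO response against EV the count was 14. It was 4 for deposited values, 9 where probe sets of a gene were averaged, and 0 in 3 fits. These had no filter, a constant prior, or the FoxO1 and FoxO3 pairs of both lines as replicates of 1 FoxO group. The last was an alternative chosen after seeing the data. At an unadjusted p under 0.05, limma still gave 20, 18 and 10 members and 3405, 2731 and 1663 genes in those 3 fits. Over all genes tested, the 1116 calls became 184 for deposited values, 573 for averaged probe sets and 0 in those 3 fits. For FoxO3 against EV the count of 22 became 7 as deposited, 0 with no filter and 0 under a constant prior. Over all genes tested, 2372 calls became 583, 0 and 0 in the same order. For FoxO3 against FoxO1 the count of 11 became 2 as deposited and 5 (4 lower, 1 higher) with a common array median. It was 5 where probe sets were averaged, and 0 with no filter or under a constant prior. Over all genes tested, 830 calls became 46, 672, 365, 0 and 0 in the same order. The fits with 0 calls gave 20 and 17 members and 3133 and 2490 genes at an unadjusted p under 0.05. For FoxO1 against EV the count of 0 became 1 with a common array median and 1 with a floor at the 40th percentile. Over all genes tested, 12 calls became 36 and 36. Leaving out 1 pair gave 4 to 17 members for FoxO, 0 to 3 for FoxO1, 12 to 22 for FoxO3 and 1 to 14 for FoxO3 against FoxO1; an arm left with 1 pair was assumed to vary like the others. Of the called members' values over all alternatives, 829 kept their direction and call, 251 lost the call, and 3 reversed, all between RCC4 and UMRC2: VARS1 to 0.18 and EIF4EBP1 to 0.42 as deposited, and AIMP1 to -0.26 on averaged probe sets. The causes were not tested. Each response already pairs 4OHT with vehicle of the same line and construct; no further replicate block could be fitted, since each combination has 1 array and the labels give no replicate numbers.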

Other observations

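Of 6 renal line marker genes measured, 2 fell in the mean FoxO response against EV, PAX8 by 0.88 ± 0.13 and KRT18 by 1.11 ± 0.16 (SE, both with a limma adjusted p of 0.0107), where 4.73% of all genes tested fell. PAX8 encodes a transcription factor of the renal lineage, and KRT18 encodes a keratin of simple epithelia.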
